A study of Mus musculus with 16 samples.

Results

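Trp53, Mdm2, Mdm4 and Ccng1 are the genes of p53 and of 3 of its feedback regulators. They were chosen by symbol, with their response to deletion of Atf4 already known, from the 5921 genes of the expression table used here, and all 4 were among the 2620 genes that passed the filter on low values. The study measured RNA of embryonic mouse ventricles (E11.5) in 4 groups, each of 4 biological replicates, 16 libraries in all. Atf4, which encodes a transcription factor of the integrated stress response, was deleted in a conditional knockout (cKO) with Xmlc2-Cre, a Cre driver for cardiomyocytes. In one line exons 2 and 3 of Atf4 are flanked by loxP sites, and in the other line exon 2 alone; each line has its own controls. Each line is also a batch of its own by the labels (batch 1 and batch 2), and the effects of line and batch cannot be told apart. The genotype label reads C57BL/6 WT on all samples, cKO included, and whether the controls carried a floxed allele or Cre is not stated. Values are the authors' TPM (transcript abundance scaled to a fixed total per library and corrected for transcript length), which keep no record of read depth.

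The p53 protein is a transcription factor that is held at a low level in unstressed cells and accumulates after DNA damage, nucleolar stress and other insults. Its control is largely after translation: Mdm2 is the ubiquitin ligase that marks p53 for degradation, and Mdm4, a relative of Mdm2, binds p53 and represses its activity. Mdm2 and Ccng1 are transcribed under p53 and act back on it, so that their RNA is a common readout of p53 activity, whereas Trp53 RNA itself often is not. Ccng1 encodes cyclin G1, which recruits the phosphatase PP2A to Mdm2. Loss of Mdm2 or Mdm4 is lethal to the mouse embryo unless p53 is also removed.

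The stretches before the transcription starts of Ccng1, Mdm2 and Trp53 are shown because each holds the p53 decamer, the unit that occurs as a pair in a full p53 site. They come from RefSeq (GRCm38.p6), read 5′ to 3′ on the gene's strand, and capitals mark the match. The Ccng1 stretch is chr11:40755387-40755536 (minus strand), that of Mdm2 is chr10:117710859-117711008 (minus strand), and that of Trp53, between Wrap53 and Trp53, is chr11:69580261-69580347 (plus strand).
Ccng1: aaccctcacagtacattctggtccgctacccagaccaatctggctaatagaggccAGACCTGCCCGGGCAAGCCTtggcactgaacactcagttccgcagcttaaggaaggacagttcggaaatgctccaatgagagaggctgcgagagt
Mdm2: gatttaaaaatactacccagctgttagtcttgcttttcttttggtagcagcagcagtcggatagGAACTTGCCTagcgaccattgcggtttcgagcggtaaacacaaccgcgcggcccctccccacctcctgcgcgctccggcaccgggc
Trp53: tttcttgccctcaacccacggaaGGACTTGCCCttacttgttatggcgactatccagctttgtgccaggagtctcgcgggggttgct

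Windows from 250 bases before to 50 bases after each RefSeq start were searched on both strands. An exact decamer was in the window of Ccng1, of Mdm2 and of Trp53, in neither of the 2 Mdm4 windows, and in 8.36% of all 32851 windows. With 1 mismatch allowed, 70.0% of all windows matched, so that looser search separates little. In the Ccng1 window a second decamer with 1 mismatch abuts the exact one, which together make a full p53 site without a spacer at chr11:40755462-40755481, at positions -195 to -176 from the start. This form of the site was looked for only after the Ccng1 window had been read, and it was in 29 windows (0.0883%). Genes with it that were among the genes tested numbered 1, Ccng1 itself. The cyclic AMP response element TGACGTCA (1.79% of all windows), the C/EBP-ATF element TGATGNAAN (3.95%) and the E2F sites TTTCGCGC or TTTGGCGC (0.813%) did not occur in the windows of the 4 genes. The p53-responsive promoter of Mdm2 lies in its first intron, outside the window searched.

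Trp53, the gene of p53 itself (chromosome 11, 69580348 to 69591873), was at 74.4, 74.9, 69.9 and 91.6 TPM in the exon 2-3 controls and at 81.5, 78.6, 82.3 and 94.4 TPM in the exon 2-3 cKO. These groups overlapped, with 1 cKO library above all controls, and the log2 fold change of TPM + 1, the scale of every fold change here, was 0.12 (SE 0.089). Trp53 in the exon 2 line was at 95.3, 91.6, 86.6 and 84.2 TPM in controls and at 90.5, 98.2, 95.5 and 79.1 TPM in cKO, a log2 fold change of 0.018 (SE 0.073). The cKO libraries here lay on both sides of the controls. The members were chosen on these contrasts, so their fold changes are a description and no p-value is attached to them. A processed copy of Trp53 is annotated on chromosome 17, and reads shared with it make the level of Trp53 uncertain.

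Mdm2, the ubiquitin ligase of p53 (chromosome 10, 117688875 to 117710758), was at 38.2, 38.0, 33.2 and 41.5 TPM in the exon 2-3 controls and at 49.5, 42.5, 52.3 and 48.4 TPM in the exon 2-3 cKO. All 4 cKO libraries lay above all 4 controls, but by as little as 1.02 times for the closest pair, and the log2 fold change was 0.35 (SE 0.082), or 1.28 times in the means. Mdm2 in the exon 2 line was at 42.5, 41.6, 41.3 and 41.6 TPM in controls and at 38.2, 44.4, 47.6 and 39.2 TPM in cKO, with a log2 fold change of 0.014 (SE 0.072). In this cKO group replicates 1 and 4 were below every control, and replicates 2 and 3 above every control.

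Mdm4, the relative of Mdm2 that represses p53 (chromosome 1, 132986105 to 133030587), was at 27.9, 26.1, 26.6 and 28.1 TPM in the exon 2-3 controls and at 25.3, 28.2, 25.5 and 28.3 TPM in the exon 2-3 cKO. The log2 fold change was -0.019 (SE 0.061), with 2 cKO libraries above and 2 below all controls. Mdm4 in the exon 2 line was at 31.8, 27.3, 32.3 and 29.4 TPM in controls and at 25.1, 32.2, 31.6 and 29.9 TPM in cKO, with a log2 fold change of -0.026 (SE 0.087). Only cKO replicate 1 was outside the range of the controls there. Mdm4 overlaps Gm29257 and Gm41953 on the other strand and has a processed copy on chromosome X, so its level is uncertain on both grounds.

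Ccng1, the gene of cyclin G1 (chromosome 11, 40748552 to 40755309), was at 97.9, 94.1, 93.8 and 95.7 TPM in the exon 2-3 controls. In the exon 2-3 cKO it was at 282, 279, 279.7 and 258 TPM. Each of the 16 pairs of a cKO and a control library gave a ratio between 2.63 and 3.01, and the log2 fold change of 1.52 (SE 0.046) ranked 3 of 2620. In the exon 2 line Ccng1 was at 118, 116, 129 and 125 TPM in controls and at 104, 133, 139.9 and 133 TPM in cKO, a log2 fold change of 0.056 (SE 0.087). Replicate 1 of this cKO group was below every control and the other 3 above. Without that library the log2 fold change was 0.15 (SE 0.056), and it remained far from the 1.52 of the exon 2-3 line.

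**Figure D1:**
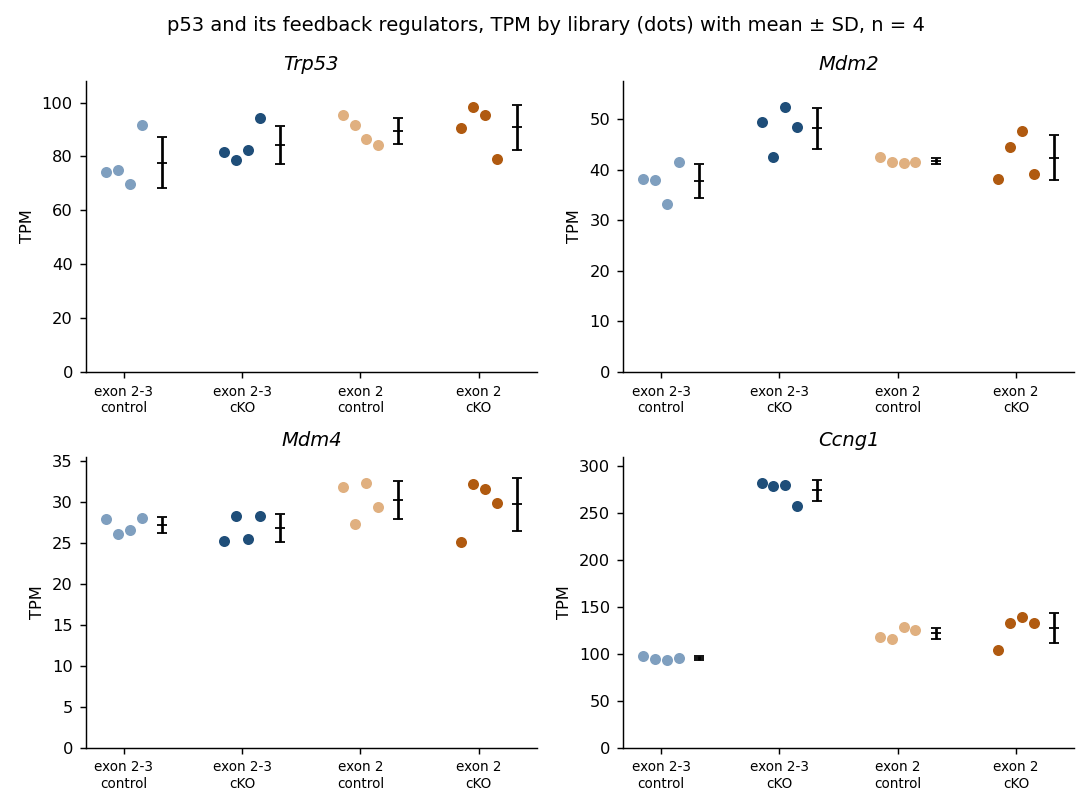
TPM of Trp53, Mdm2, Mdm4 and Ccng1 in each library (dots) by group, with the mean ± SD of 4 libraries in black. Ccng1 lies between 258 and 282 TPM in the exon 2-3 cKO and between 93.8 and 139.9 TPM in all other libraries, while the groups of Trp53 and Mdm4 overlap.

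Mdm2 and Ccng1, 2 of the 4 genes, had all exon 2-3 cKO libraries above all their controls, where 9.24% of the 2620 genes tested did, and none of the 4 had all below (5.31% of genes). None of the 4 had separate groups in the exon 2 line (0.687% of genes higher and 1.15% lower). By limma's adjusted p, 6.72% of genes were called in the exon 2-3 line; the choice of members used that contrast, and nothing is read from these shares. The fold change of the exon 2-3 line minus that of the exon 2 line was 1.46 (SE 0.10) for Ccng1, 0.33 (SE 0.11) for Mdm2, 0.10 (SE 0.12) for Trp53 and 0.0074 (SE 0.11) for Mdm4. These differences too rest on the contrasts that chose the genes; 2.37% of all genes tested were called for this difference (1.6% more positive in the exon 2-3 line and 0.763% more negative). By rank of the log2 fold change in the exon 2-3 line, Mdm2 was at 185, Trp53 at 789 and Mdm4 at 1676 of 2620.

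**Figure D2:**
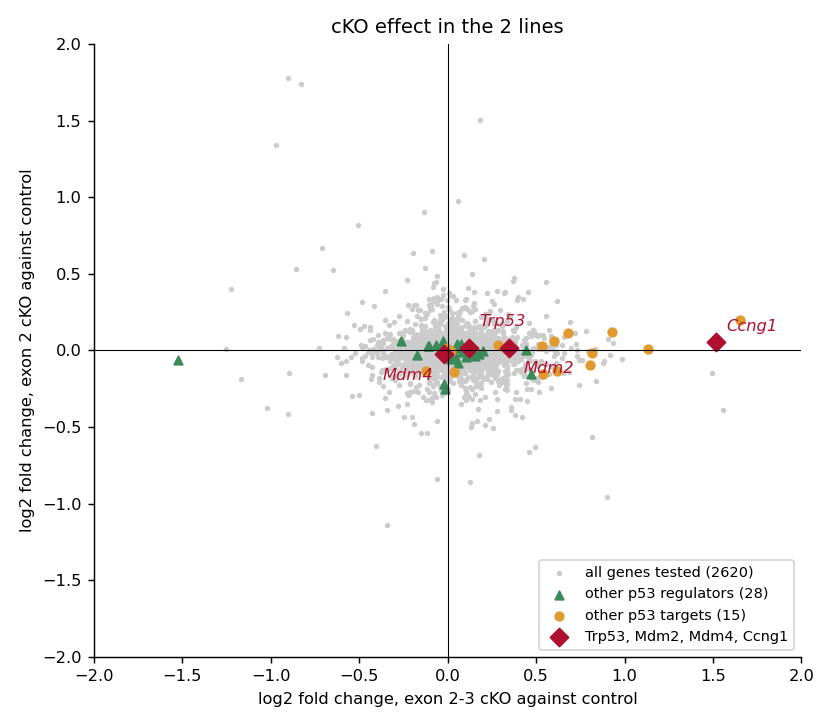
Log2 fold change of TPM + 1 in the exon 2-3 line (horizontal) and in the exon 2 line (vertical) for the 2620 genes tested, with the 4 genes as red diamonds, other p53 targets as orange circles and other p53 regulators as green triangles. Ccng1 lies far right at 1.52 and near 0 on the vertical axis, Mdm2 at 0.35, and Trp53 and Mdm4 lie within the cloud of all genes.

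The order of levels was the same in the 4 groups. Ccng1 was highest, followed by Trp53, Mdm2 and Mdm4, and no gene's libraries overlapped those of its neighbour in this order within any group. The narrowest step was from Ccng1 to Trp53 in the exon 2-3 controls, where the lowest Ccng1 value was 93.8 TPM and the highest Trp53 value 91.6 TPM. In those controls Ccng1 had a mean of 95.4 ± 1.91 TPM and Trp53 of 77.7 ± 9.54 TPM, followed by Mdm2 at 37.7 ± 3.41 TPM and Mdm4 at 27.2 ± 0.997 TPM (SD, n = 4 each).

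The spread between libraries of a group differed among the members. It comes from the libraries in which the members' response was already known, so the percentiles are a description. Ccng1 had a residual SD of 0.047 on the log2 scale in the exon 2-3 line, and 1.98% of the genes tested had one as small. Its residual SD in the exon 2 line was 0.14, at the 61.4 percentile. Mdm4 was at the 10.5 percentile in the exon 2-3 line and at the 58.0 percentile in the exon 2 line. Trp53 and Mdm2 lay between the 36.8 and 62.1 percentiles in both lines.

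Ratios of TPM within a library remove its scaling and compare the regulators with their target. Mdm2 to Trp53 was 0.487 ± 0.0280 in exon 2-3 controls and 0.574 ± 0.0570 in the cKO, and 0.468 ± 0.0218 and 0.467 ± 0.0364 in the exon 2 line (SD, n = 4 each). The lowest exon 2-3 cKO value, 0.512, was just under the highest control, 0.513, so these groups overlapped. Mdm4 to Mdm2 was 0.724 ± 0.0567 in exon 2-3 controls and 0.562 ± 0.0799 in the cKO, which did not overlap (at least 0.676 against at most 0.664). For the exon 2 line it was 0.723 ± 0.0541 and 0.702 ± 0.0497. Ccng1 to Trp53 was 1.24 ± 0.135 in exon 2-3 controls and 3.28 ± 0.374 in the cKO, against 1.37 ± 0.135 and 1.42 ± 0.221 in the exon 2 line.

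Between the control groups, a contrast that did not choose the genes, the ratios could be tested with an exact two-sided permutation test over 70 splits, for which the smallest p is 0.0286. The log2 difference, exon 2-3 minus exon 2 controls, was 0.058 for Mdm2 to Trp53, 0.00093 for Mdm4 to Mdm2 and -0.15 for Ccng1 to Trp53. None passed (exact permutation p 0.343, 0.971 and 0.257; adjusted over the 3 ratios 0.514, 0.971 and 0.514).

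**Figure D3:**
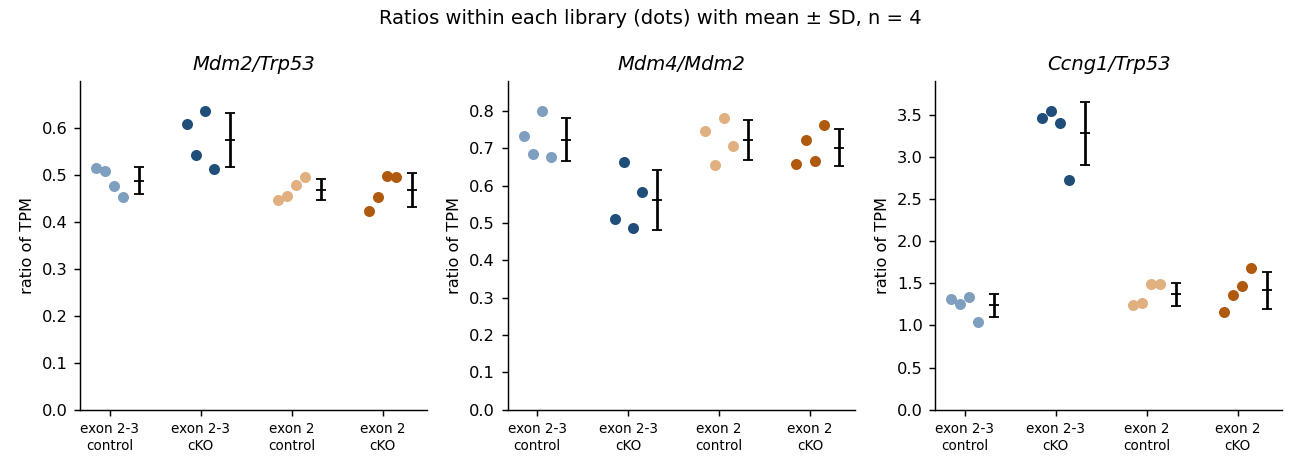
Ratios of TPM within each library (dots) by group, with the mean ± SD of 4 libraries in black, for Mdm2 to Trp53, Mdm4 to Mdm2 and Ccng1 to Trp53. The control groups of the lines overlap in each panel, and the exon 2-3 cKO lies below its own controls for Mdm4 to Mdm2 and above them for Ccng1 to Trp53.

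The levels in the controls of the lines were compared with limma over all 16 libraries. Ccng1 was lower in the exon 2-3 controls, at 95.4 ± 1.91 TPM against 122 ± 5.96 TPM in the exon 2 controls (SD, n = 4 each), with no overlap (log2 difference -0.35, SE 0.072, limma adjusted p 0.000736). It was the 1 gene of the 4 to pass, in a comparison where 52.6% of all genes tested were called (38.1% lower and 14.4% higher) and the median gene differed by -0.14. Control groups without overlap were found for 32.6% of genes lower and 12.9% higher. After centring each library on its median the difference of Ccng1 was -0.17 and no longer passed (limma adjusted p 0.0562; 0.000549 to 0.0562 over all alternatives). Trp53 had a difference of -0.21 (SE 0.085, limma adjusted p 0.0509), Mdm2 of -0.15 (SE 0.079, adjusted p 0.131) and Mdm4 of -0.15 (SE 0.076, adjusted p 0.123). After median centring the difference of Trp53 was -0.026 (adjusted p 0.784), and those of Mdm2 and Mdm4 turned to 0.034 and 0.036. The summed level of 6 cardiomyocyte markers moved with this comparison, from 12510 to 14607 TPM in the exon 2 controls and from 16997 to 18467 TPM in the exon 2-3 controls, and its part in these differences was not tested. Of the 6, 4 were called higher in the exon 2-3 controls, with log2 differences of 0.74 for Tnnt2 and 0.66 for Tnni1. The calls of Myl7 (0.25) and Myl4 (0.23) were lost in 8 and 2 of 14 alternatives, and Pln (-0.076) and Hand1 (-0.11) were not called. Of the epicardial and fibroblast markers, Col1a1 (-1.23), Lum (-1.19), Col3a1 (-0.74) and Tcf21 (-0.23) were called lower there and Dcn (0.22) higher. Among endothelial and myeloid markers, Sox17 (-0.51) and Cd68 (-0.63) were called lower and Icam2 (0.40) and Lyz2 (0.21) higher. Calls of Tcf21, Dcn and Lyz2 were lost in 4, 7 and 8 of 14 alternatives. Their part was not tested either. Each of these comparisons holds line and batch together.

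Whether the 4 genes varied together from library to library was read from the deviations of each library from its group mean, over 16 libraries and 6 pairs. Trp53 and Mdm2 had the smallest p-values, with a Pearson's r of 0.64 (permutation within groups, p = 0.0342, adjusted 0.205) and a Spearman's rho of 0.64 (permutation p = 0.0238, adjusted 0.143). The r was 0.64 in either line and 0.63 without the 2 libraries farthest from the median. After quantile normalisation of the libraries it was 0.18. Mdm4 and Ccng1 had an r of 0.67 (permutation p = 0.0870, adjusted 0.261) and a rho of 0.46 (permutation p = 0.149, adjusted 0.436). That relation rested on exon 2 cKO replicate 1 and exon 2 control replicate 2, without which r was 0.19. The other 4 pairs had r between -0.14 and 0.43, with permutation p-values of 0.213 or more. No pair passed after adjustment.

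**Figure D4:**
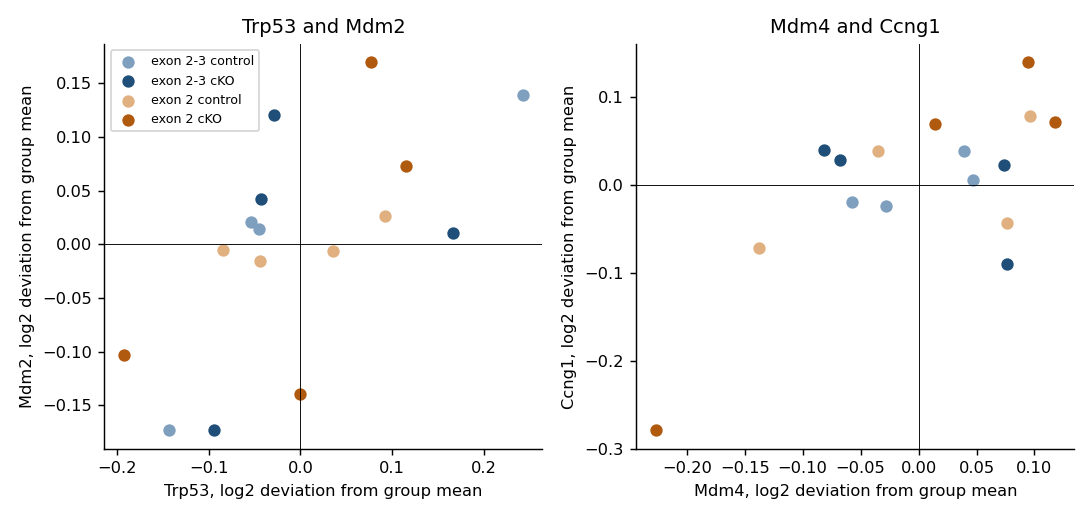
Deviation of each library from its group mean on the log2 scale for Trp53 and Mdm2 (left) and for Mdm4 and Ccng1 (right), coloured by group. The points of Trp53 and Mdm2 spread along a rising diagonal (r = 0.64), and 1 library, exon 2 cKO replicate 1, lies far below the rest for Mdm4 and Ccng1.

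The genes most like each member were found by Pearson's r over the 16 libraries, after each line had been centred on its controls. For Ccng1 these were Zfp365 (r = 0.98), a zinc finger gene with a part in genome stability, Btg2 (0.97), an antiproliferative gene, and Phlda3 (0.97), an inhibitor of Akt signalling. For Mdm2 they were Poglut2 (0.95), Tmbim1 (0.92) and Unc50 (0.92), and the r of Mdm2 with Ccng1 was 0.85. Poglut2, an endoplasmic reticulum glucosyltransferase, had a mean of 41.4 TPM in exon 2-3 controls and 48.0 TPM in the cKO, and did not pass (limma adjusted p 0.0886; it passed after quantile normalisation, at 0.0369). Tmbim1 rose in the exon 2-3 cKO (log2 fold change 0.31, SE 0.077, limma adjusted p 0.0434), a call that was lost in 8 of 16 alternatives: without a filter, and without any 1 of the 8 libraries apart from control replicate 4 (largest adjusted p 0.109). For Trp53 they were Sf3a1 (0.90), Ap3d1 (0.88) and Ybey (0.86), and for Mdm4 Suco (0.81), Scyl3 (0.80) and Sesn1 (0.79). These 6 passed in neither line. The libraries share their scaling and, for Ccng1 and Mdm2, the contrast that chose the genes, so the r values are a description.

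The nearest genes on the chromosome were read as a measure of the surroundings. Wrap53, which starts 97 bases from Trp53 on the other strand and encodes a telomerase and Cajal body protein, had a mean of 16.6 ± 2.28 TPM in exon 2-3 controls and 13.6 ± 0.648 TPM in the cKO (SD, n = 4 each). Its log2 fold change of -0.26 (SE 0.098) did not pass (limma adjusted p 0.152). Control replicate 3 stood apart at 13.2 TPM, and without it Wrap53 passed, as it did after quantile normalisation and after median centring (smallest adjusted p 0.0120). Atp1b2, on the other side of Trp53, had a log2 fold change of -0.10 and an adjusted p of 0.678. Slc35e3, 22919 bases before the start of Mdm2, had a log2 fold change of 0.34 (SE 0.10), close to the 0.35 of Mdm2, and an adjusted p of 0.0752. It passed in 4 of 16 alternatives: quantile normalisation, median centring, 1 fit over all libraries, and without control replicate 4 (smallest adjusted p 0.0219). Nudcd2, 8505 bases beyond the end of Ccng1, rose from 65.0 ± 2.22 to 76.2 ± 2.82 TPM in the exon 2-3 cKO (log2 fold change 0.23, SE 0.049, limma adjusted p 0.0263). That call was lost in 7 of 16 alternatives, 5 of them with 1 library left out: control replicates 1 and 2 and cKO replicates 1, 2 and 3 (largest adjusted p 0.0889). Hmgb1-ps1, on the far side of Ccng1, did not pass (-0.15, adjusted p 0.309). None of these 5 neighbours passed in the exon 2 line. Cpm beside Mdm2, and Gm38687 and n-TKctt26 beside Mdm4, had too little RNA to be tested. Of the genes that overlap Mdm4, Gm29257 was tested and did not pass (adjusted p 0.351).

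Other direct targets of p53 were taken from lists of genes that act in arrest, death, and repair or metabolism. Of 68 genes listed, 19 were in the table and 15 were tested. In the exon 2-3 cKO 10 of the 15 rose and none fell, where 4.16% of all genes tested were called higher and 2.56% lower (limma adjusted p under 0.05). Their median log2 fold change was 0.60, beside 0.032 over all genes. All cKO libraries lay above all controls for 11 of the 15 and below for 0 (9.24% and 5.31% of all genes tested). In the exon 2 cKO none of the 15 was called in either direction, where 0.0763% of all genes were. By unadjusted p under 0.05, none was higher and 1 lower there, where 1.22% of all genes were higher and 1.98% lower. All exon 2 cKO libraries lay above all controls for 1 of the 15, Slc19a2, and below for 2, Perp and Steap3. Over all genes tested these shares were 0.687% and 1.15%. The median was 0.0091 beside -0.012 over all genes. The lists were drawn up with the rise of such genes in these samples known, so the counts are no independent evidence of a direction.

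Among arrest genes, Zfp365, Btg2, Ptpn14 and Tob1 rose in the exon 2-3 cKO. Zfp365 rose from 0.614 ± 0.0890 to 4.08 ± 0.485 TPM (SD, n = 4 each), and it was at 0.718 ± 0.133 and 0.975 ± 0.226 TPM in the exon 2 line. Tob1, a relative of the antiproliferative Btg genes, rose from 17.4 ± 2.30 to 27.1 ± 2.34 TPM (log2 fold change 0.62, limma adjusted p 0.00736). In the exon 2 line Tob1 was at 28.1 ± 2.66 TPM in controls and 25.4 ± 1.63 TPM in cKO. The fold change of Btg2 was 0.82 and that of Ptpn14, a phosphatase of the Hippo pathway that overlaps genes on both strands and is uncertain, was 0.68 on the log2 scale. Btg1 and E2f7 had log2 fold changes of 0.018 and -0.0055 and did not pass. Among death genes, Phlda3 rose from 39.4 ± 4.43 to 87.1 ± 5.54 TPM, Perp, a membrane protein of desmosomes, from 64.0 ± 6.36 to 93.2 ± 4.25 TPM, and Apaf1, the core of the apoptosome, from 13.1 ± 1.01 to 19.3 ± 0.322 TPM. Apaf1 overlaps genes on the other strand and is uncertain. Steap3 was at 9.64 and 9.96 TPM and did not pass. Among repair and metabolism genes, Slc19a2, a thiamine transporter, rose from 7.49 ± 1.26 to 15.1 ± 0.560 TPM, and Ercc5, an endonuclease of nucleotide excision repair, had a log2 fold change of 0.81. Ddit4, an inhibitor of mTOR signalling, rose from 30.7 ± 4.82 to 46.8 ± 2.82 TPM (limma adjusted p 0.0105), and with no filter on low values its adjusted p was 0.0541. Dyrk3 (0.28) and Sesn1 (-0.12) did not pass. The log2 fold change of Ccng1 was above that of 9 of the 10 called genes, all but Zfp365, and that of Mdm2 was below all 10. Of the 10, Tob1 (-0.67), Ptpn14 (-0.43), Apaf1 (-0.29), Ercc5 (-0.28) and Perp (-0.22) were called lower in exon 2-3 than in exon 2 controls. Zfp365, Btg2, Phlda3, Slc19a2 and Ddit4 were not, and 38.1% of all genes tested were called lower there. Calls of Apaf1, Ercc5 and Perp between controls were lost in 4, 3 and 1 of 14 alternatives. The exact p53 decamer was in 0 of the 9 called genes that had a promoter window and in 1 of the 5 uncalled genes, Sesn1. Of all genes with a window 9.55% held it, and nothing is read from these counts.

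The other regulators of p53 were read from lists of ubiquitin ligases and their partners, kinases and phosphatases, cofactors, and nucleolar stress genes. Of 86 genes listed, 28 were in the table and all 28 were tested. With limma none was called in either line. At an unadjusted p under 0.05, 3 of the 28 were higher and 3 lower in the exon 2-3 cKO, where 13.1% of all genes were higher and 7.98% lower, and 0 were higher and 1 lower in the exon 2 cKO. These counts are near the shares of all genes. Their median was 0.034 in the exon 2-3 line and -0.0080 in the exon 2 line, close to the medians of all genes. After median centring 3 fell in the exon 2-3 cKO, Smyd2, Wrap53 and Ppp2r5a. Smyd2, which methylates p53, had a mean of 134 TPM in controls and 118 TPM in cKO (-0.17, limma adjusted p 0.0540), and it passed in 4 of 16 alternatives, 1 of them without control replicate 3. Among the others, Hdac2 had a log2 fold change of -0.042, Mapkapk2 of -0.0067, and the ribosomal protein genes Rps26 and Rpl26, whose reads can be shared with processed copies, of 0.059 and 0.044. Among the ubiquitin genes Ube2d1 had 0.10 (SE 0.088) and Ube2n -1.52 (SE 0.65, adjusted p 0.214), the latter with a wide spread between cKO libraries.

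**Figure D5:**
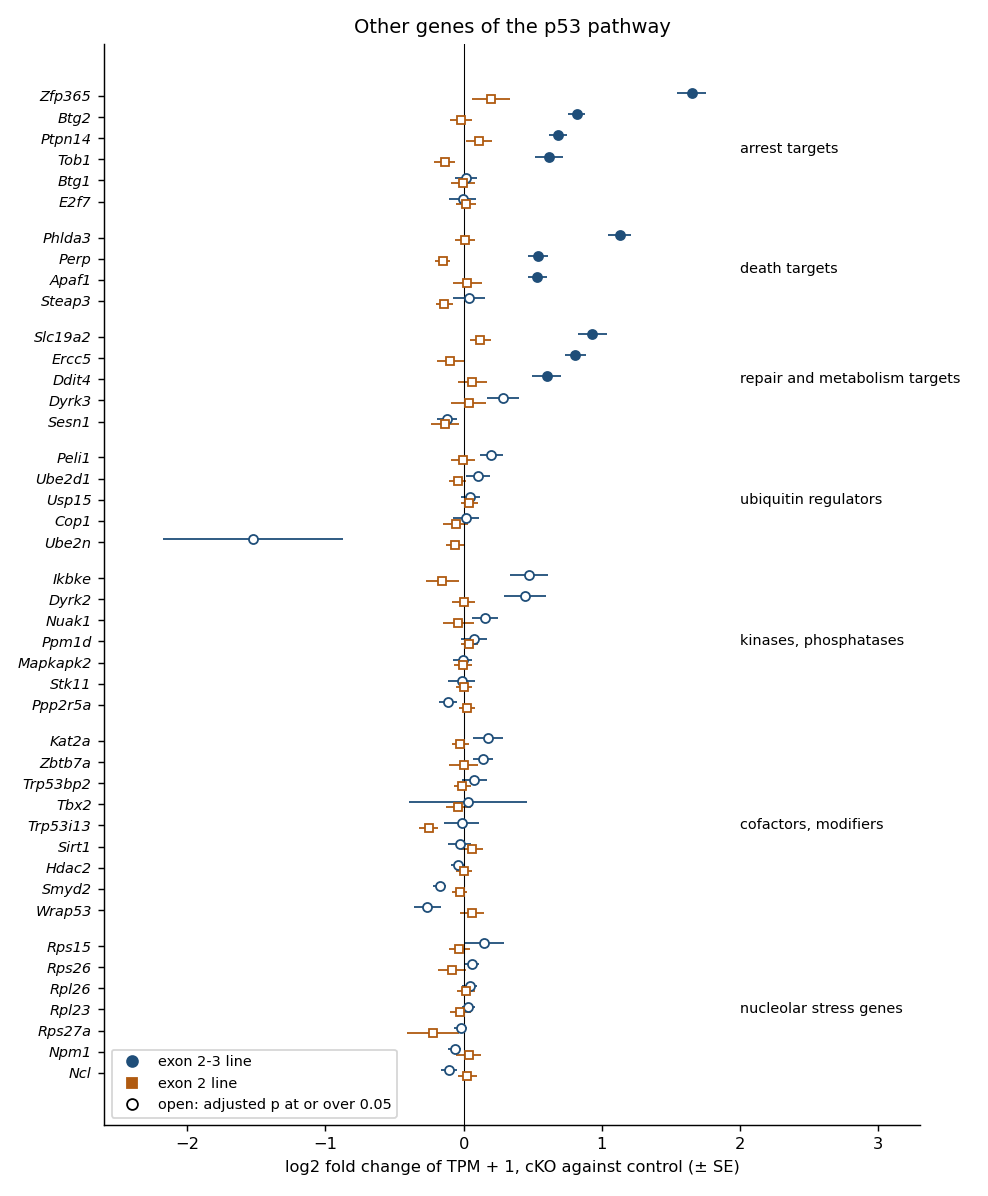
Log2 fold change of TPM + 1 (± SE) of the 15 p53 targets and 28 p53 regulators tested, by role, in the exon 2-3 line (blue circles) and the exon 2 line (orange squares); filled symbols passed an adjusted p of 0.05. The filled symbols are 10 targets of the exon 2-3 line, and no regulator is filled.

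Markers of other cell types stood beside these results. In the exon 2-3 cKO, 4 of 5 epicardial and fibroblast markers tested rose, namely Tcf21 (0.70), Col1a1 (0.65), Dcn (0.62) and Col3a1 (0.47). Of all genes tested, 4.16% were called higher and 2.56% lower there. The summed level of the 5 went from between 256 and 291 TPM in controls to between 395 and 432 TPM. The sum lay in the exon 2 line between 385 and 548 TPM in controls and between 377 and 485 TPM in cKO, and none of the 5 passed. Their part in the values of Mdm2, Ccng1 and the p53 targets was not tested. In bulk tissue, fewer cells of a type and less RNA per cell cannot be told apart. The 6 cardiomyocyte markers tested, Tnnt2, Tnni1, Myl4, Myl7, Pln and Hand1, summed to between 16492 and 17479 TPM in the exon 2-3 cKO and to between 12886 and 13975 TPM in the exon 2 cKO, and both ranges overlapped those of their controls. Hand1 was called, lower in the exon 2-3 cKO (-0.60, limma adjusted p 0.00573). Tnni1 had all exon 2-3 cKO libraries below all controls but did not pass (-0.39, SE 0.16, adjusted p 0.213). The sum of the 4 erythroid markers overlapped between cKO and control in both lines, from 1512 to 11293 TPM in the exon 2-3 cKO. The 2 endothelial and 2 myeloid markers tested were called in neither line. Of these, Lyz2 had all exon 2-3 cKO libraries below all controls (-0.19, limma adjusted p 0.0929). Of 15 neuronal markers listed, only 2, Map2 and Syt1, were in the table, and they reached at most 1.66 TPM. A label names cortical neurons for the RNA extraction, and these 2 markers alone cannot check it.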

How the data were processed

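The authors deposited 1 table of TPM values, with 1 column per library. The submitters' processing notes name FastQC, Trim Galore 0.6.7, HISAT2 2.2.1, StringTie 2.2.1, featureCounts, DESeq2 and GRCm38, without their roles, and whether counting used the strand is not given in the sources used here. The labels disagree on library preparation (stranded mRNA or depletion of ribosomal RNA). Levels of genes that overlap others are therefore uncertain. Beyond those marked so above, Pln, Wrap53, Tmbim1, E2f7, Ppp2r5a, Trp53i13, Suco, Scyl3 and Ybey overlap genes on the other strand. Myl4 overlaps genes on both strands and Mapkapk2 a gene on its own strand. The rows held cover chromosomes 1 and 10 and chromosome 11 up to 106501211, between 15.2% and 17.1% of a library's TPM; other genes, Atf4 included, were not analysed here, so the targeted gene could not check the labels. All 16 columns matched 1 sample by its description.

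The limma fits and the correlations used log2(TPM + 1), a scale on which changes of low genes come out too small. The tests of ratios used log2 of the ratio of TPM, and the search for outlying libraries used TPM. The 2620 genes whose mean TPM reached 1 were fitted per line (8 libraries) with limma 3.58.1 (lmFit, eBayes with trend) in R 4.3.3; a group means model over 16 libraries gave the interaction and the control comparison. P-values are two-sided and Benjamini-Hochberg adjusted over all genes tested, with a threshold of 0.05. SEs are limma's. Permutations within groups numbered 100000. Only the limma fit of the exon 2-3 line was tried on simulated data, with independent noise for each gene. The other fits and the permutation tests were not. Python 3.11.15 with numpy 2.4.6, pandas 2.3.3, scipy 1.17.1 and matplotlib 3.10.9 did the rest.

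The members and lists were chosen with earlier results of these data known. Named were the 4 members, their nearest and overlapping rows, the 3 genes most like each member, up to 5 called and 2 uncalled genes per p53 list, and markers. Dyrk2, Ikbke, Wrap53 as a regulator, and every gene named in the closing part or for a call under an alternative were chosen after their values were seen. The alternatives are those of the closing part.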

Additional observations from a re-analysis of the deposited data

Results flagged for a closer look

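Among 188 groups of 4 libraries (the 4 genes and the 43 other p53 genes, in 4 groups each), 7 had 1 library far from the other 3, where chance gives about 5% of groups. Ccng1 was at 258 TPM in exon 2-3 cKO replicate 4 and between 279 and 282 TPM in the other 3. Wrap53 was at 13.2 TPM in exon 2-3 control replicate 3, against 17.4 to 18.1 TPM. Trp53i13 was at 22.1 TPM in exon 2-3 control replicate 4, against 16.1 to 17.0 TPM, and Nuak1 at 15.6 TPM in exon 2-3 control replicate 2, against 12.0 to 12.5 TPM. In the exon 2 controls replicate 1 stood apart for Tbx2 (12.3 TPM, against 10.2 to 10.6) and, by a small margin, for Steap3 (13.2 TPM, against 13.1). Smyd2 was at 146 TPM in exon 2 cKO replicate 4, against 158 to 159.5 TPM.

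The cKO effect differed between the lines by limma's interaction term for 9 of the 15 p53 targets, each more positive in the exon 2-3 line, where 1.6% of all genes tested were called more positive. The terms on the log2 scale were 1.45 for Zfp365, 1.12 for Phlda3, 0.90 for Ercc5, 0.84 for Btg2, 0.81 for Slc19a2, 0.76 for Tob1, 0.69 for Perp, 0.57 for Ptpn14 and 0.51 for Apaf1, with limma adjusted p-values from 2.30e-05 (Phlda3) to 0.0490 (Apaf1). The call for Apaf1 was lost in 15 of 23 alternatives: without a filter, with the replicate block, and without any 1 of 13 libraries (all but exon 2-3 control replicate 4, exon 2 control replicate 2 and exon 2 cKO replicate 3; largest adjusted p 0.110), and the other 8 calls held in every alternative that gave a value. All 4 cKO libraries of the exon 2-3 line were above all their controls for each of these 9 genes, where 9.24% of all genes tested were. Their log2 fold changes in the exon 2 line, which enter the terms, lay between -0.15 (Perp) and 0.20 (Zfp365), and none passed. The 9 were picked by their calls, from lists drawn up with the rise of such genes in these samples known. The counts and p-values here are therefore no independent evidence of a direction.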

How the results depend on the processing

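The alternatives were a pseudocount of 0.1, no filter, a mean TPM of at least 5, quantile normalisation, median centring, rescaling without hemoglobin genes, 1 fit over all libraries, the replicate number as a block, and leaving out each library. The 4 genes' fold changes moved by less than the spread between replicates, except for Ccng1 in the exon 2-3 line, at 1.46 after quantile normalisation and 1.47 after median centring. Calls of p53 targets in that line numbered 9 at a minimum mean TPM of 5 and 10 in the other alternatives. Without a filter Ddit4 was not called (limma adjusted p 0.0541), so the 10 genes there were not the 10 of the main fit. Calls of p53 regulators there were 2 lower after quantile normalisation, 3 lower after median centring, 2 higher (Dyrk2 and Ikbke) and 1 lower in 1 fit over all libraries, and 0 to 2 lower with 1 library left out. Genes called there numbered 176, 95 without a filter, 311 with quantile normalisation and 343 with median centring, and 70 to 190 with 1 library left out; every library apart from control replicates 3 and 4 took the count to 100 or less. For the exon 2 line the count was 2, with 3 under quantile normalisation, 4 in 1 fit over all libraries, and 2 to 4 with 1 left out (4 without control replicate 3). The interaction was called for 62 genes, 133 and 127 under those scalings, and 36 to 84 with 1 left out (41 or fewer without exon 2-3 cKO replicate 3, exon 2 control replicate 4, or exon 2 cKO replicate 2 or 4). Between controls, the difference of Trp53 passed at a minimum mean TPM of 5 (-0.21, limma adjusted p 0.0477), under quantile normalisation (-0.17, 0.0198), and without exon 2-3 control replicate 4 (-0.29, 0.00583) or exon 2 control replicate 4 (-0.24, 0.0484), with a range of -0.29 to -0.16 with 1 left out, and was -0.026 (0.784) after median centring. That of Ccng1 failed after median centring alone (-0.17, adjusted p 0.0562). The cause was not tested. Correlations of same-numbered deviations lay between -0.029 and 0.21 in the exon 2-3 line and between 0.064 and 0.20 in the exon 2 line. The same-numbered cKO library was the best match of 1 of 4 controls in the exon 2-3 line and of 3 of 4 in the exon 2 line. Whether replicate numbers pair the libraries was not tested. The replicate block left 149 and 2 genes called in the exon 2-3 and exon 2 lines and 68 for the interaction. No ratio between controls passed with 1 library left out (exact permutation test, smallest adjusted p 0.429). No depth was available, so no counting limit is given.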

Other observations

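Ube2n, an E2 enzyme that builds lysine-63 ubiquitin chains, took split values in the exon 2-3 cKO. It was at 5.63 and 5.99 TPM in replicates 1 and 3 and at 47.0 and 50.2 TPM in replicates 2 and 4, whereas its exon 2-3 controls lay between 46.0 and 57.8 TPM and all exon 2 libraries between 53.2 and 65.7 TPM. The kinase genes Dyrk2 and Ikbke, whose products phosphorylate p53 or act in innate signalling, had means of 42.0 and 3.15 TPM in exon 2-3 controls and of 57.3 and 4.79 TPM in the cKO. Neither passed (limma adjusted p 0.127 and 0.0767), and both overlap genes on the other strand.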
